A study of Homo sapiens with 6 samples.

Results

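The unfolded protein response and the integrated stress response were followed through 35 genes, read in total RNA from the human leukaemia line SEM. The genes were taken by symbol from a list of known members of both responses, with no threshold on measured values. Each symbol matched 1 Ensembl ID, so the 35 are 35 of the 62703 gene IDs counted. They fall into 16 genes of the ATF4 branch and 19 genes of the XBP1/ATF6 branch. SEM is an established line of B-cell precursor acute lymphoblastic leukaemia (B-ALL) that carries the KMT2A::AFF1 gene fusion. AK_8_2 is a circular RNA produced from that fusion gene. In the knock-down group (KD, 3 libraries) SEM cells received 2 short interfering duplexes of the Dicer-substrate type (DsiRNAs), placed over the back-splice junction of AK_8_2. In the negative control group (NC, 3 libraries) SEM cells received a commercial non-targeting DsiRNA. Both groups are the same cell line, both carry the fusion, and both went through the same lipid transfection in 2 rounds, so no library shows untransfected cells. The series' text calls the replicates independent and does not say how the cultures were separated. The p-values therefore measure the spread between these 6 libraries, which may be technical. The question addressed is whether silencing AK_8_2 shifts either stress branch, and how strongly each branch is expressed in SEM.

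Secretory and membrane proteins fold in the endoplasmic reticulum (ER), and unfolded protein there is sensed by the membrane proteins PERK (gene EIF2AK3), IRE1 (ERN1) and ATF6. PERK and its sister kinases phosphorylate the initiation factor eIF2, which slows general translation and favours translation of the transcription factor ATF4. ATF4 drives genes for amino acid synthesis and uptake and for feedback on the pathway, and this arm, shared with signals such as amino acid shortage, is called the integrated stress response. IRE1 splices the XBP1 mRNA and ATF6 is cleaved to an active factor, and together they drive ER chaperones, folding enzymes and the degradation machinery. Gene counts see neither eIF2 phosphorylation, nor XBP1 splicing, nor ATF6 cleavage, nor the translation of ATF4. The values below are RNA levels only, and 3 values of a group are given in the order of replicates 1, 2 and 3.

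The branches differ in the short DNA elements known to bind their factors. These elements are shown as a feature of the gene lists that the expression values did not use, though many of the genes carry none. RefSeq promoter windows (GRCh38.p14, 250 bases before to 50 bases after an annotated start) were matched by symbol for 32 of the 35 genes. SHMT2, SLC7A11 and PDIA3 had no entry. The C/EBP-ATF response element (CARE), the site type of ATF4 dimers, was searched as TGATGNAA on both strands. It occurred in 4 of the 14 ATF4-branch genes with a window (ASNS, ATF3, CHAC1 and SLC3A2), in 1 of 18 XBP1/ATF6-branch genes (HERPUD1) and in 4.46% of all 27305 genes with a window. The ER stress response element (ERSE), bound by ATF6 together with NF-Y, was searched as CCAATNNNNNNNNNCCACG on both strands. It occurred in 7 of 18 XBP1/ATF6-branch genes (CALR, CANX, CRELD2, HSP90B1, HSPA5, PDIA6 and XBP1), in 0 of 14 ATF4-branch genes and in 25 of the 27305 genes, or 0.092%. The unfolded protein response element (UPRE), a site type of XBP1, was searched as TGACGTGG on both strands and occurred in HYOU1 alone of the 32 genes and in 0.927% of all genes. The end of the UPRE read on the opposite strand is the CCACG end of the ERSE, so the patterns share letters. Several of these genes are textbook targets because of such elements, so the counts describe the lists and are not independent of how they were made. A match is a run of letters and not a measured site.

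The CARE matches upstream of a start are printed with 5 flanking bases, 5′ to 3′ on the gene's strand, with the element in capitals. CHAC1 and HERPUD1 carry it in the reverse orientation.
ASNS, chr7:97872464-97872481, minus strand: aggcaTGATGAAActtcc
ATF3, chr1:212565211-212565228, plus strand: caggaTGATGGAAggctg
CHAC1, chr15:40953257-40953274, plus strand: tgccgTTGCATCActcct
HERPUD1, chr16:56931961-56931978, plus strand: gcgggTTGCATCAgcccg

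The ERSE matches of HSPA5, HSP90B1, CALR, CANX, PDIA6 and XBP1 are printed in the same way, with the ends of the element in capitals and the 9-base spacer in lower case. CALR and the second match of HSP90B1 are in the reverse orientation. HYOU1 is added with its UPRE in capitals.
HSPA5, chr9:125241386-125241414, minus strand: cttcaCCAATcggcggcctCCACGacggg
HSP90B1 first, chr12:103930211-103930239, plus strand: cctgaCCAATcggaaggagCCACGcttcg
HSP90B1 second, chr12:103930316-103930344, plus strand: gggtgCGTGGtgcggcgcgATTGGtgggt
CALR, chr19:12938379-12938407, plus strand: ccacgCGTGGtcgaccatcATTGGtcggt
CANX, chr5:179698773-179698801, plus strand: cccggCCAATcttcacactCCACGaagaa
PDIA6, chr2:10812848-10812876, minus strand: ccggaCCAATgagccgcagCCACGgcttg
XBP1, chr22:28800598-28800626, minus strand: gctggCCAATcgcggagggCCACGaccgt
HYOU1, chr11:119057381-119057398, minus strand: ccccgTGACGTGGtccaa

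**Figure D1:**
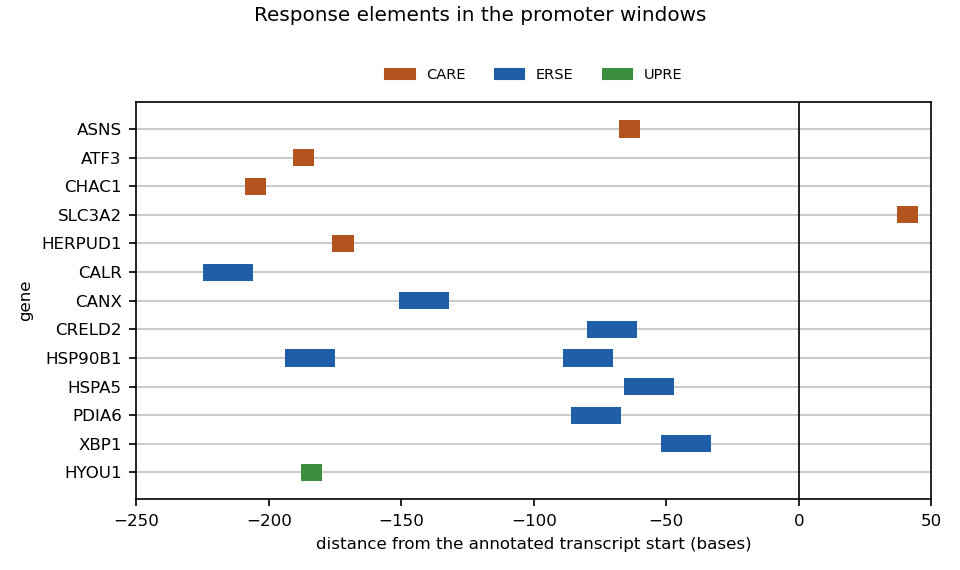
Position of each match in the promoter window of 1 transcript start per gene. The x axis is the distance in bases from the annotated start (black line), grey lines span the window and coloured bars are the matched letters (CARE, ERSE, UPRE). All matches lie upstream of the start except that of SLC3A2, which begins 37 bases after it.

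The libraries held 14750579 to 26694160 counts in genes. Both replicate 1 libraries stood apart from the other 4: 48.6% to 50.03% of their records lay in no annotated feature (11.3% to 17.3% elsewhere) and 52077 to 53121 genes had at least 1 count (30641 to 32311 elsewhere). In KD replicate 3, 31.5% of records aligned to more than 1 place, against 4.7% to 17.3% in the others. Gene counts hold no measure of the AK_8_2 junction, so they do not show how far it was silenced. The B-cell precursor markers PAX5 (850 to 1260 CPM, the counts of a gene scaled to a common library total), EBF1 and CD79A were expressed in all 6 libraries, whereas the precursor markers DNTT and CD34 were at or below 0.157 CPM outside replicate 1. Markers of other lineages were low: the summed level of 5 T-cell markers ran from 0.118 to 8.73 CPM in KD and from 0.219 to 10.8 in NC. Summed plasma cell markers (4 genes, cells known for a high secretory load) ran from 0.786 to 9.29 and from 0.826 to 11.9. Fibroblast markers (4 genes) ran from 4.79 to 21.3 and from 3.4 to 20, and myeloid markers (5 genes, CSF1R the highest) from 23.4 to 28.7 and from 21.5 to 29.2. All 3 erythroid markers stayed under 1 CPM everywhere. The high ends of the T-cell, plasma cell and fibroblast ranges came from replicate 1 in both groups.

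All 35 genes were expressed above the filter on low counts. Levels between genes were compared as CPM per kilobase of exon (CPM per kb). In the NC libraries the median gene of the XBP1/ATF6 branch stood at 26.0 CPM per kb, that of the ATF4 branch at 11.5 and that of the 16266 tested genes with a length at 3.87. The XBP1/ATF6 branch was also the higher of the pair with longest transcripts or gene spans as the length. Over all 6 libraries the means ran from 0.504 CPM per kb for ASNS to 267 for CALR. ER chaperones and folding enzymes filled 6 of the 7 highest places, with ATF4 in between.

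The lectin chaperones, which hold glycoproteins during folding, were the most abundant group. CALR (calreticulin, ENSG00000179218.15, GRCh38 chromosome 19, 12938578 to 12944489, plus strand) had 259 ± 21.5 CPM per kb (SD, n = 3) in NC, a level above that of 99.1% of tested genes. CANX (calnexin, its membrane-bound relative) had 140 ± 13.5 (SD, n = 3). Between them came ATF4 (ENSG00000128272.18, chromosome 22, 39519695 to 39522685, plus strand), the transcription factor at the head of its branch, with 156 ± 27.6 CPM per kb (SD, n = 3), above 98.5% of tested genes. The difference between ATF4 and CANX was smaller than the SD of ATF4 and larger than that of CANX, and was not tested. The protein disulfide isomerases, which form and reshuffle disulfide bonds, followed with means over all libraries of 117 (PDIA6), 92.6 (PDIA3) and 39.4 (PDIA4). HSP90B1 (GRP94, the ER member of the HSP90 family) had 88.1 and HSPA5 (BiP, the ER member of the HSP70 family and a binding partner of the sensors) 79.6 CPM per kb.

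The amino acid genes of the ATF4 branch covered a wide range of levels. PSAT1, an enzyme of serine synthesis, had a mean of 61.7 CPM per kb, SLC7A5, the transporter of large neutral amino acids, 58.2, and MTHFD2, a mitochondrial one-carbon enzyme, 52.7. SHMT2, which moves a carbon from serine to folate, had 36.1 and PHGDH, the first enzyme of serine synthesis, 21.2. The cystine transporter SLC7A11 had 2.24, and in NC only 38.6% of tested genes were lower. ASNS (asparagine synthetase) had the lowest level of the 35 genes, 0.532 ± 0.109 CPM per kb (SD, n = 3) in NC, above 12.8% of tested genes.

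The ASNS value has a limit of its own. In GENCODE 29, 44.6% of its exon bases are shared with the same-strand transcript AC079781.5, and reads there belong to no single gene in a count per gene. Its levels were 3.10, 1.81 and 1.47 CPM in KD and 2.92, 2.18 and 2.01 CPM in NC, from 28 to 55 reads a library. Its replicate 1 values lay within the range of single markers of other lineages there, such as CD8A with 3.55 and 2.92 CPM. Whether the gene is low in SEM or lost in counting was not tested. Among the other members, exon bases shared with genes on either strand made up 39.6% of DDIT3, 33.2% of MTHFD2, 25.2% of PDIA6, 18.9% of PDIA3 and 15.1% of EIF2AK3, and the strand setting of the counting is not given in the sources used here.

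The sensors and the stress-induced factors stood lower. Of the sensors, ATF6 had a mean of 7.93 CPM per kb, EIF2AK3 5.96 and ERN1 1.09. XBP1 had 35.9, in contrast to DDIT3 (CHOP, a factor tied to prolonged stress) with 8.91 and ATF3 with 1.81. The feedback regulators PPP1R15A (GADD34, which directs dephosphorylation of eIF2) and TRIB3 (a pseudokinase that restrains ATF4) had 14.4 and 5.14. CHAC1 (a glutathione-degrading enzyme) had 3.44. The genes of ER-associated degradation ran from 5.91 (HERPUD1) through 10.1 (SEL1L) to 15.4 (EDEM1).

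**Figure D2:**
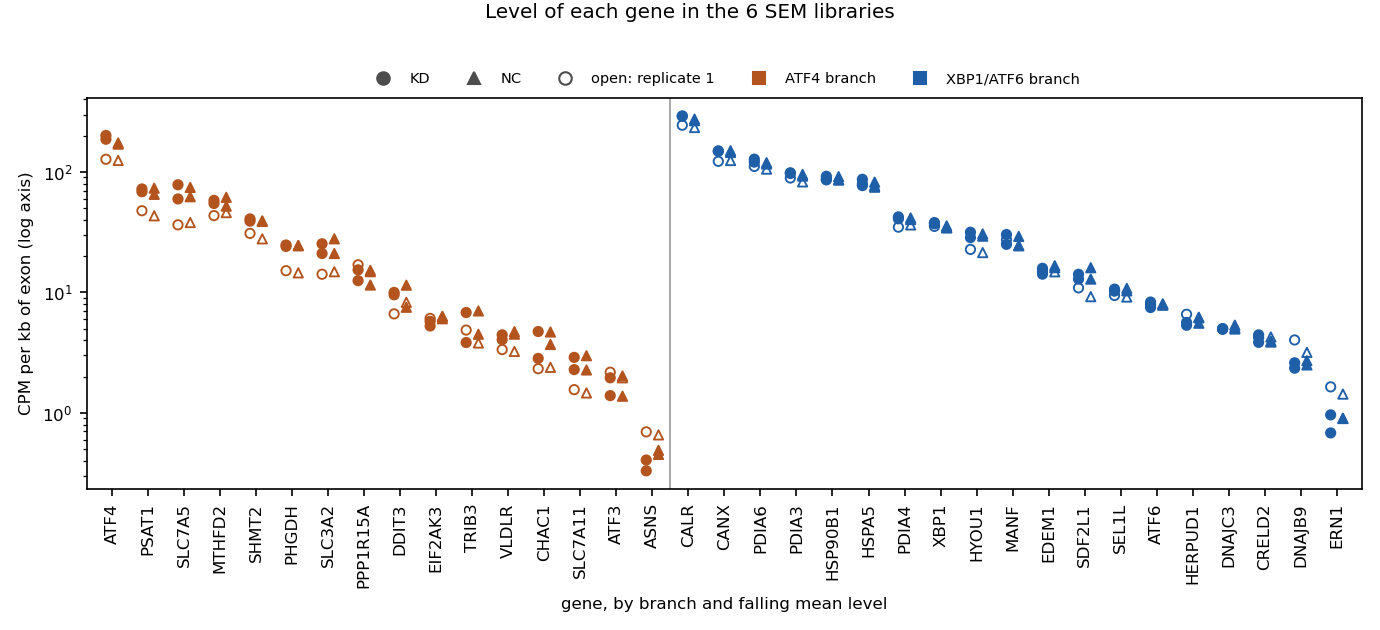
Level of each gene in the 6 libraries, in CPM per kb of exon on a log axis, with genes of each branch ordered by mean. Circles are KD, triangles are NC, and open symbols are replicate 1. KD and NC symbols lie side by side in every gene, and in much of the ATF4 branch the open symbols lie below the filled ones, as for SLC7A5.

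Neither branch differed detectably between KD and NC. By quasi-likelihood testing in edgeR, adjusted after Benjamini and Hochberg over all genes, 0 of the 35 genes passed an adjusted p of 0.05 (0% of all 16929 genes tested passed), and none of the 35 reached an unadjusted p under 0.05 (52 of all genes did). DESeq2 called 1 gene of all and no member. Same-numbered KD and NC libraries deviated together, but so did libraries 2 and 3 when crossed, so only replicate 1 is set apart as a pair. On that limited basis the replicate number is treated as a pair here. Blocked on that number, the same edgeR test called 0 of the 35 genes (0.171% of all genes passed, 24 higher and 5 lower in KD), and 2 members, ATF4 and CALR, had an unadjusted p under 0.05, as had 841 of all genes. For 34 of the 35 the paired 95% interval lay inside a 1.5-fold change in either direction, which held for 66.6% of all genes. The exception was ASNS. Without the block, the intervals of 22 members lay inside it.

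KD and NC values overlapped in all 35 genes. Of all genes, 3.43% had groups that did not overlap, a share at which few or none of 35 genes would show it. In 10 of the 35 genes (28.6%) KD differed from NC in the same direction within all 3 replicate numbers, close to the 25.7% of all genes. The 8 higher ones were ATF4, PPP1R15A, XBP1, HSPA5, CALR, PDIA3, PDIA6 and MANF, and the 2 lower ones EIF2AK3 and DNAJC3. These directions, here and below, use normalised library sizes (TMM factors). As shares of unscaled counts in genes, XBP1, HSPA5, PDIA3 and MANF were lower in KD within replicate 3. Paired log2 estimates over the 35 genes ran from -0.20 for ASNS to 0.13 for ATF4.

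Among the sensors, EIF2AK3 (PERK) stood at 33.1, 31.3 and 28.6 CPM in KD and at 34.4, 34.2 and 32.8 CPM in NC. KD was the lower library within each replicate number, but KD replicate 1 lay above NC replicate 3. Its paired log2 difference of -0.13 (SE 0.07, 95% interval -0.28 to 0.02, lower in 3 of 3 pairs) did not pass, with an adjusted p of 1.00 in edgeR's blocked test. ATF6 had 62.6, 65.6 and 59.1 CPM in KD and 63.0, 61.7 and 63.2 in NC, with a paired difference of -0.01 and an interval of -0.13 to 0.12. ERN1 had 17.9, 10.5 and 7.40 CPM in KD and 15.5, 9.74 and 9.79 in NC. Both replicate 1 libraries were the highest for ERN1, and the paired interval was wide, from -0.28 to 0.25.

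Of the transcription factors, ATF4 had 321, 470 and 506 CPM in KD against 314, 428 and 438 CPM in NC. KD was higher within each number, but KD replicate 1 lay below the NC libraries of replicates 2 and 3. The paired log2 difference was 0.13 (SE 0.05, 95% interval 0.03 to 0.22), with differences of 0.03, 0.14 and 0.21 in the pairs, an unadjusted p of 0.0146 and an adjusted p of 0.833 over all genes in edgeR's blocked test. Without the block it was 0.14, with an interval of -0.36 to 0.63.

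The other factors gave no common direction. DDIT3 had 8.67, 12.5 and 13.1 CPM in KD and 10.8, 15.01 and 9.84 in NC, which made it lower in KD within replicates 1 and 2 and higher within replicate 3. ATF3 had 8.78, 7.90 and 5.62 CPM in KD and 7.90, 8.18 and 5.55 in NC. The third library was the lowest of both groups. XBP1 had 107, 115 and 112 CPM in KD and 104, 108 and 104 in NC, a paired log2 difference of 0.08 (95% interval -0.03 to 0.19), higher in 3 of 3 pairs and not passing the test.

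In the amino acid genes the differences between KD and NC were small beside those between replicate numbers. SHMT2 had 150, 189 and 197 CPM in KD and 135, 190 and 188 in NC, with a paired log2 difference of 0.07 (95% interval -0.03 to 0.17). PSAT1 had 104, 158 and 150 CPM in KD and 94.7, 161 and 143 in NC. In both genes the first library of each group was the lowest. SLC7A5 had 173, 372 and 283 CPM in KD and 181, 353 and 296 in NC, with a paired difference of -0.02 (95% interval -0.11 to 0.08). SLC3A2, the heavy chain that partners both SLC7A5 and SLC7A11, had 73.3, 131 and 109 CPM in KD and 76.9, 144 and 109 in NC. For these transporter chains replicate 2 was the highest and replicate 1 the lowest in both groups.

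The feedback and receptor genes of the ATF4 branch gave no call either. PPP1R15A had 52.4, 47.7 and 38.7 CPM in KD and 47.2, 46.0 and 35.6 in NC, higher in KD in 3 of 3 pairs, with a paired log2 difference of 0.11 (95% interval -0.03 to 0.24). VLDLR, a lipoprotein receptor known as an ATF4 target, had 31.3, 37.8 and 41.5 CPM in KD and 30.2, 42.0 and 44.1 in NC. KD and NC overlapped in both genes and neither passed.

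Among the ER chaperones, HSPA5 (ENSG00000044574.9, chromosome 9, 125234853 to 125241330, minus strand) had 311, 301 and 340 CPM in KD and 292, 300.3 and 322 CPM in NC. KD was higher within each number by log2 differences of 0.09, 0.00 and 0.08, and the paired interval was -0.04 to 0.15. HSP90B1 had 404, 410 and 433 CPM in KD and 404, 429 and 403 in NC, a paired difference of 0.01 (95% interval -0.09 to 0.11). CALR had 664, 788 and 792 CPM in KD and 635, 746 and 724 in NC. The KD library was the higher in 3 of 3 pairs, the paired log2 difference was 0.09 (SE 0.04, 95% interval 0.001 to 0.18), and the adjusted p was 0.999 in edgeR's blocked test.

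The folding enzymes, the degradation genes and the secreted proteins gave values of the same size. PDIA3 had 378, 418 and 412 CPM in KD and 351, 405 and 392 in NC (paired log2 difference 0.07, interval -0.02 to 0.17). PDIA6 had 456, 496 and 524 CPM in KD and 434, 490 and 477 in NC (0.07, interval -0.02 to 0.17). Both were higher in KD within every replicate number and neither passed. EDEM1, a lectin that hands misfolded glycoproteins to degradation, had 101, 107 and 95.8 CPM in KD and 100.2, 113 and 109 in NC. MANF, a secreted ER stress protein, had 65.3, 59.7 and 72.1 CPM in KD and 58.4, 58.2 and 69.5 in NC. Of these, EDEM1 was higher in KD within replicate 1 and lower within replicates 2 and 3, and MANF was higher in all 3.

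**Figure D3:**
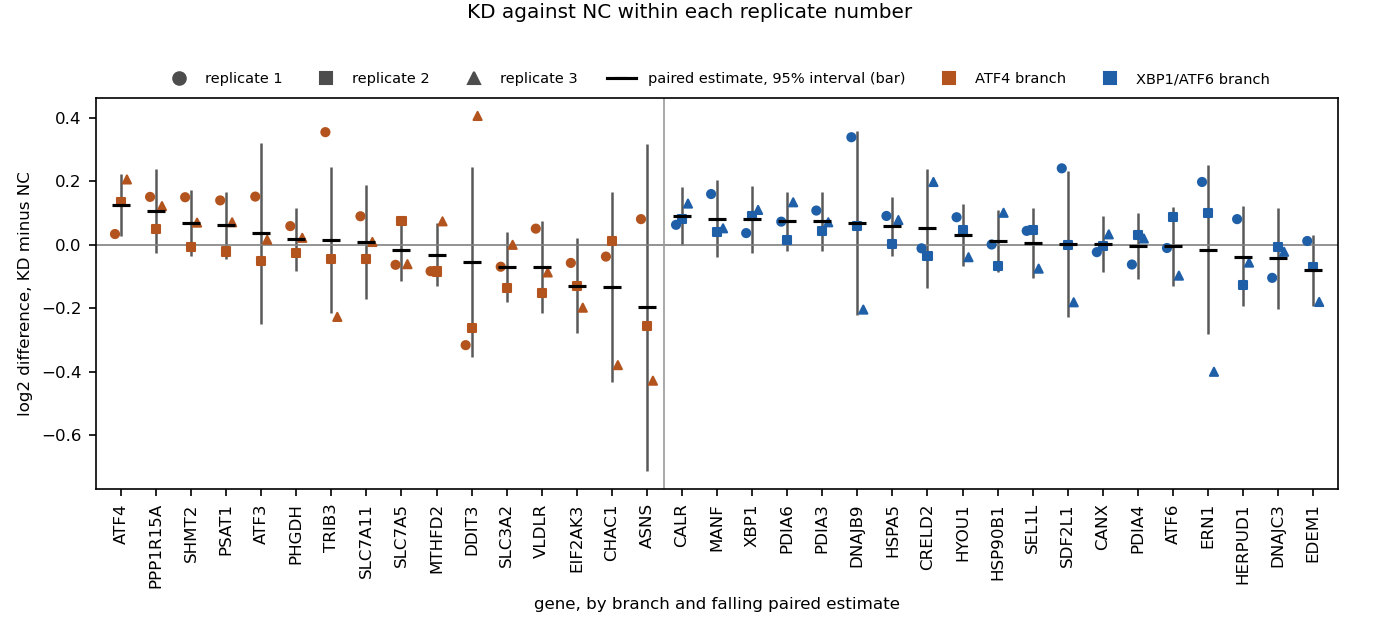
Log2 difference of KD minus NC for each gene: coloured symbols give it within replicate numbers 1 (circle), 2 (square) and 3 (triangle), and black dashes with bars give the paired estimate and its 95% interval. The intervals of all genes except ATF4 and CALR cover 0, and the widest is that of ASNS.

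Set side by side, the branches were centred near 0. The median log2 fold change was 0.00 in the ATF4 branch (8 genes higher and 8 lower in KD), 0.03 in the XBP1/ATF6 branch (13 higher and 6 lower) and -0.004 over all genes tested. Within replicates 1, 2 and 3 the ATF4-branch median was 0.06, -0.05 and 0.01, and the XBP1/ATF6-branch median 0.06, 0.03 and 0.02. Their difference was -0.008, -0.08 and -0.008, with an SD of 0.04 over the 3 pairs. No p is attached, since the genes of a list are not replicates. As summed levels, the ATF4 branch had 1346, 2025 and 1910 CPM in KD and 1324, 2012 and 1826 in NC. The XBP1/ATF6 branch had 3818, 4286 and 4325 CPM in KD and 3708, 4227 and 4142 in NC. With TMM-normalised library sizes KD was thus slightly higher than NC in every pair for both sums, and the KD and NC ranges overlapped. As shares of unscaled counts in genes, both branches together had 0.561% in KD and 0.582% in NC within replicate 3, so KD was lower. Within replicate 1 the shares were 0.555% in KD and 0.549% in NC, and within replicate 2 they were 0.602% and 0.593%. A few abundant genes carry the summed levels, ATF4, SLC7A5 and MTHFD2 in the ATF4 branch and CANX, CALR and PDIA6 in the XBP1/ATF6 branch. Leaving out both replicate 1 libraries gave paired medians of -0.01 and 0.02. Without the block, leaving out 1 library turned the sign of these medians: that of the ATF4 branch was -0.14 with KD replicate 2 left out, -0.13 with NC replicate 1, 0.10 with KD replicate 1 and 0.17 with NC replicate 2 left out, and that of the XBP1/ATF6 branch ran from -0.02 (without KD replicate 3) to 0.08 (without NC replicate 3). No member was called in any of these fits.

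The members differed far more between replicate numbers than between KD and NC. In edgeR's F test of the replicate numbers with the group in the model, 24 of the 35 genes (68.6%) passed an adjusted p of 0.05, against 51.1% of all genes. By branch, 13 of 16 ATF4-branch genes (81.2%) and 11 of 19 XBP1/ATF6-branch genes (57.9%) passed. The 3 of the ATF4 branch that did not were DDIT3, ASNS and EIF2AK3. HSPA5 (adjusted p 0.0624), HSP90B1, XBP1 and ATF6 were among the 8 of the other branch that did not.

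Replicate 1 was low in most genes of the ATF4 branch. Both replicate 1 libraries lay below the other 4 in 10 of its 16 genes (62.5%), in 8 of 19 XBP1/ATF6-branch genes (42.1%) and in 29.6% of all genes. The 10 were ATF4, CHAC1, PSAT1, PHGDH, SHMT2, MTHFD2, SLC7A11, SLC3A2, SLC7A5 and VLDLR. PHGDH, for example, had 140 and 134 CPM in the KD and NC libraries of replicate 1, 222 and 226 in replicate 2 and 228 and 225 in replicate 3, with an adjusted p of 2.21e-08 for the replicate numbers in edgeR's F test. The median log2 difference of replicate 1 from replicates 2 and 3 was -0.43 in the ATF4 branch, -0.07 in the XBP1/ATF6 branch and 0.01 over all genes. It was -0.77 for the 3 amino acid transport chains and -0.43 for the 5 genes of serine, one-carbon and asparagine synthesis, against -0.06 for the 6 ER chaperones and co-chaperones.

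A few genes went the other way. ASNS, ERN1, DNAJB9 (a co-chaperone of HSPA5) and HERPUD1 were higher in both replicate 1 libraries than in the other 4. These are 4 of the 35 genes (11.4%), against 31% of all genes. On average ATF3 (log2 difference 0.31) and PPP1R15A (0.25) of the ATF4 branch were also higher in replicate 1. Both passed for the replicate numbers, though their replicate 1 libraries overlapped with those of replicate 2. DNAJB9 had 11.4 and 9.02 CPM in replicate 1 (KD, NC), 7.39 and 7.09 in replicate 2 and 6.67 and 7.70 in replicate 3. These 4 genes were at low to moderate levels, up to 34.0 CPM. In replicate 1 single T-cell and plasma cell markers also stood at up to several CPM, and the unannotated share was highest. The myeloid marker CSF1R was instead lower there (11.2 CPM in KD, 10.6 in NC) than in the other libraries (19.9 to 23.6). The part of those features in the replicate 1 differences was not tested. In bulk RNA, fewer cells with a transcript and less of it per cell cannot be told apart. Which feature of replicate 1 (culture, RNA or library) goes with the low ATF4-branch level cannot be told apart either, since both groups share it.

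Replicates 2 and 3 lacked the high unannotated share of replicate 1, and a smaller difference lay between them. Their libraries also differed. Genes took 60.2% (KD) and 59.1% (NC) of records in replicate 2, and 47.8% and 53.35% in replicate 3. The part of this in the differences below was not tested. Both replicate 3 libraries lay below both replicate 2 libraries in 9 of 16 ATF4-branch genes (56.2%) and above them in 0. The counts were 4 below and 4 above of 19 in the XBP1/ATF6 branch (21.1% each way). Of all genes, 23.3% lay below and 21.3% above. The 9 were ATF3, TRIB3, CHAC1, PSAT1, MTHFD2, SLC7A11, SLC3A2, SLC7A5 and PPP1R15A. The median log2 difference of replicate 3 from replicate 2 was -0.23 in the ATF4 branch, -0.02 in the XBP1/ATF6 branch and -0.006 over all genes. In 2 further lists described below it was smaller than in the ATF4 branch. It was -0.09 for 27 other ATF4 targets and -0.03 for 12 aminoacyl-tRNA synthetases. By gene it was -0.73 for TRIB3, -0.54 for CHAC1 and -0.33 for PPP1R15A, and the transport chains had a median of -0.34.

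With replicate 1 left out, 1 of the 35 genes passed the test between replicates 3 and 2, where 0.759% of all genes passed. That gene was TRIB3 (ENSG00000101255.12, chromosome 20, 362835 to 397559, plus strand), the ATF4-induced pseudokinase. It had 16.7 and 13.1 CPM in the KD and NC libraries of replicate 1, 23.4 and 24.1 in replicate 2 and 13.2 and 15.4 in replicate 3. Replicate 2 was thus the high pair, and replicates 1 and 3 overlapped. Its log2 difference of replicate 3 from replicate 2 was -0.72 (SE 0.11, 2 libraries against 2), with an adjusted p of 0.0214 in edgeR's quasi-likelihood test. The transporter chains SLC7A5 (-0.31, adjusted p 0.0621) and SLC3A2 (-0.33, adjusted p 0.0689) did not pass. KD replicate 3 is the library with the high share of reads aligned to several places, and the part of that share in these differences was not tested.

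For ATF4 RNA no such fall was measured. It was 449 CPM on average in replicate 2 and 472 in replicate 3, a log2 difference of 0.08 (SE 0.06, adjusted p 0.689 in the same edgeR test). The means of replicates 2 and 3 were also close for PHGDH (224 and 226 CPM) and SHMT2 (190 and 193 CPM). In the XBP1/ATF6 branch HSPA5 and MANF were above replicate 2 in both replicate 3 libraries (log2 0.15 and 0.27, neither passing).

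**Figure D4:**
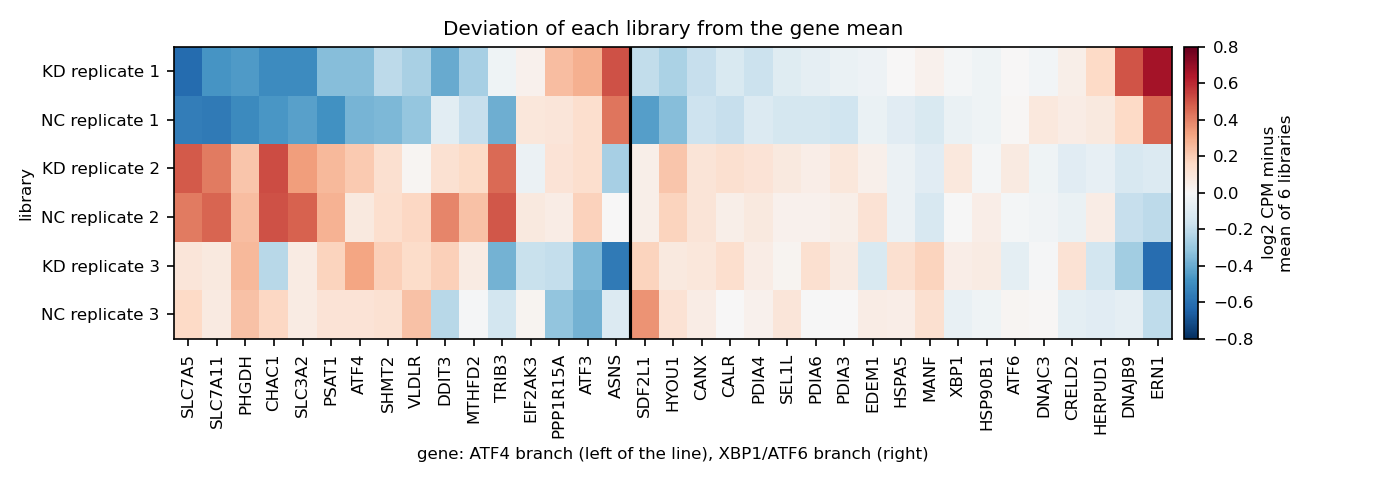
Deviation of each library from the mean of the 6 libraries, in log2 CPM, with KD and NC of the same number in neighbouring lines; genes are ordered within each branch by the difference of replicate 1. Blue fills most of the replicate 1 cells of the ATF4 branch, red most of its replicate 2 cells, and KD and NC lines of 1 number look alike.

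Other genes of the same pathways gave the same picture for KD against NC. No gene of 7 further lists passed either edgeR fit. For the list of the other eIF2 kinases with eIF2, eIF2B and the phosphatase, 20 of 20 genes were tested and the paired median was -0.01. Its members with the smallest p were EIF2S2, a subunit of eIF2, with a paired log2 difference of 0.07 and GCN1, an activator of the kinase GCN2, with -0.06. The 12 aminoacyl-tRNA synthetases, which charge tRNAs and are induced with ATF4, had a paired median of -0.01 (WARS1 -0.10, IARS1 -0.08), and 12 of 12 passed for the replicate numbers, all with a lower mean in replicate 1 than in replicates 2 and 3. Of 32 other ATF4 targets 27 were tested, with a median of -0.01 (SESN2, a stress regulator of mTORC1, -0.21; the autophagy receptor SQSTM1 0.08).

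The further lists of ER genes gave medians near 0 as well. Of 20 other folding and oxidation genes 18 were tested (median 0.02; the peroxiredoxin PRDX4 0.15 and the prolyl isomerase PPIB 0.08). All 20 other degradation genes were tested (median 0.01; UFD1 0.12, SELENOK 0.16). All 23 genes of translocation, signal peptidase and glycosylation were tested, with a median of 0.008. SEC61G, a small subunit of the translocation channel, had 41.0 ± 8.41 CPM in KD and 34.4 ± 7.37 CPM in NC (SD, n = 3) and a paired log2 difference of 0.25 (SE 0.07), higher in 3 of 3 pairs. Its adjusted p was 0.339 in edgeR's blocked test. SSR4, of the translocon-associated complex, had a paired log2 difference of 0.10 and did not pass. Of 15 regulators of the ATF6 and IRE1 pathways 14 were tested (median 0.02; NFYC, a subunit of the ERSE-binding factor NF-Y, 0.05 and MBTPS1, the protease that cleaves ATF6, -0.04).

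Replicate 1 was on the median the lower in all 7 further lists, those outside the ATF4 programme included. For the replicate numbers, 16 of 27 other ATF4 targets passed (59.3%), near the 51.1% of all genes, with a median log2 difference of replicate 1 from the others of -0.17. The other eIF2 genes had 15 of 20 (75%) and -0.22, and the synthetases a median of -0.32. Of the ER lists, degradation genes had 11 of 20 (55%) and -0.24, translocation genes 13 of 23 (56.5%) and -0.18, folding and oxidation genes 11 of 18 (61.1%) and -0.12, and the ATF6 and IRE1 regulators 7 of 14 (50%) and -0.10.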

How the data were processed

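Total RNA libraries of 3 KD and 3 NC samples were sequenced, and the authors deposited 1 file per library with whole-number read counts for 62703 Ensembl gene IDs and 5 summary lines. The submitters' processing notes name the build hg38 and STAR 2.7.10a, and also HTSeq 0.11.1, FastQC 0.11.8 and DESeq2. For the counting, annotation release and strand were not given in the sources used here. Genes took 33.5% to 60.2% of the records, and the summary lines, which hold the rest, entered neither the library sizes nor any test.

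Groups and replicate numbers came from the sample titles. Symbols were matched through a gene name table, and coordinates, exon lengths and exon overlaps through GENCODE 29 (GRCh38), which held all 35 genes. edgeR 4.0.16 in R 4.3.3 (filterByExpr, TMM factors, robust quasi-likelihood F test, group as the only term, Benjamini-Hochberg over 16929 tested genes) gave the fold changes. CPM values use TMM-normalised library sizes, log2 differences within a pair use a prior count of 2, and paired estimates come from the same fit with the replicate number as a block. DESeq2 1.42.0, other normalisation, no filter and left-out libraries were alternatives. Libraries of a group were no duplicates of each other (chi-square of their counts divided by its degrees of freedom, 22.5 to 90.5). Each library's deviation from its group mean (log2 CPM) was compared across genes, with correlations of 0.889, 0.619 and 0.605 between KD and NC libraries numbered 1, 2 and 3, all above the limit of 0.1, so the numbers were taken as pairs. KD and NC libraries of numbers 2 and 3 crossed correlated at 0.590 and 0.553, so the pairing of those 2 numbers is weak. With replicate 1 apart in both groups, deviations from a mean of 3 libraries make numbers 2 and 3 correlate in any combination. The limit of 0.1 therefore could not test the pairing of those 2 numbers. The biological coefficient of variation was 0.372 without the block and 0.0683 with it.

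The 35 genes, the further lists, the tests and the naming rule were chosen with earlier results of these data known. Values in every library were to be printed for the sensors, the transcription factors, HSPA5, and in each role group for the gene with the smallest paired p and the gene with the highest level; ASNS, SLC3A2, PHGDH, DNAJB9 and TRIB3 are given as well where a result turns on them. Each further list contributed the 2 genes with the smallest paired p. The scripts were tested on simulated counts. Promoter sequences are RefSeq's.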

Additional observations from a re-analysis of the deposited data

How the results depend on the processing

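No member was called between KD and NC under any alternative run: DESeq2, upper-quartile normalisation, no filter, the replicate block, each library left out and each pair left out of the blocked fit. Over all genes, 29 were called with the replicate block, 1 by DESeq2, and 5, 119 and 73 with the block and pair 1, 2 or 3 left out, against 0 without the block. The median log2 fold change of the XBP1/ATF6 branch was 0.003 without the filter and 0.05 with the block and pair 3 left out, against 0.03. Its difference from the ATF4 branch became 0.02 with the block and pair 2 left out, against -0.03. Leaving out single libraries moved the ATF4-branch median from -0.139 (without KD replicate 2) to 0.172 (without NC replicate 2). The XBP1/ATF6-branch median moved from -0.024 (without KD replicate 3) to 0.084 (without NC replicate 3). The difference moved from -0.132 (without NC replicate 1) to 0.115 (without NC replicate 2). The median of all genes had the opposite sign to the ATF4 branch in 2 of these runs. It was 0.108 without KD replicate 2 (31474 genes tested) and -0.105 without NC replicate 2 (31470 genes tested). The signs of the branch medians and of their difference are therefore not stable. For the replicate numbers, 28123 of all genes passed without the filter, 4904 to 24835 with single libraries left out (more genes are tested without a replicate 2 or 3 library), and 124 with replicate 1 left out. Of the members, 16 to 29 passed with single libraries left out, 17 with DESeq2, and 1 with replicate 1 left out, where the test compares 2 libraries with 2. The paired design changed no call for a member. Depth limits ASNS, with as few as 28 reads in a library.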
